A study of Rattus norvegicus with 10 samples.

Results

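The genes described here make prostaglandins and leukotrienes, the lipid mediators that cells form from arachidonic acid. They are Ptgs1, Ptgs2, Ptges, Ptges2, Ptgds, Ptgis, Alox5, Alox5ap, Lta4h and Ltc4s, and every probe set whose single gene symbol in the array annotation is one of these names was taken, whatever its value. This gave 12 of the 31042 probe sets tested and all 10 genes of the 14217 that have a probe set with a single symbol, with 2 probe sets each for Ptgs1 and Ptges and 1 for every other gene. The samples were resident peritoneal macrophages of rats of the strain Hsdcpb:WU. Mye-macrophages had received myelin purified from brain, at 100 µg/ml in a culture of 3 days, and control macrophages no myelin in a culture of the same length. For 9 hours both groups were then given the cytokines IFNγ and IL-1β at 100 ng/ml, so that neither shows the unstimulated state. Each group holds 5 samples, numbered 1 to 5 in the labels, and a mye-macrophage and a control sample of the same number are called a pair. The macrophages were adherent cells of the peritoneal lavage, and the growth protocol gives over 95% macrophages among them. Nothing in the labels ties the samples to separate animals. The p-values below that use the pairs measure the spread of the differences within these pairs. Those that do not use the pairs measure the spread between these samples. Either spread may be technical.

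Arachidonic acid is cut out of membrane phospholipids by phospholipases and then enters either of the branches. In the prostanoid branch the cyclooxygenases COX-1 (Ptgs1) and COX-2 (Ptgs2) form prostaglandin H2, from which terminal synthases make prostaglandin E2 (Ptges, Ptges2), prostaglandin D2 (Ptgds) or prostacyclin (Ptgis). COX-1 is the form that most resting cells carry, whereas COX-2 and the microsomal prostaglandin E synthase Ptges are induced in macrophages by inflammatory stimuli. In the leukotriene branch 5-lipoxygenase (Alox5), helped by its membrane partner FLAP (Alox5ap), forms leukotriene A4, which Lta4h turns into leukotriene B4, an attractant of neutrophils, and Ltc4s into leukotriene C4, the first of the cysteinyl leukotrienes.

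The promoters of 3 genes are shown because the results turn on them: Ptgs1 is the gene that passed the test, and Ptgs2 and Ptges are those whose signal varied most between the pairs and in the same order. The sequences are RefSeq's for the rat assembly GRCr8 and run 5′ to 3′ on the gene's strand from 250 bases before to 50 bases after the start of the gene. They lie at chr3:39981169-39981468 on the plus strand (Ptgs1), chr13:64713813-64714112 on the plus strand (Ptgs2) and chr3:34586938-34587237 on the minus strand (Ptges). Capitals mark matches on either strand to one of 5 short motifs, which were searched without allowing mismatches: the TATA box TATAAA, a short cAMP response element TGACG, the C/EBP motif TTNNGNAA, the GC box GGGCGG and the E-box CACGTG. No match of one motif overlapped a match of another in these 3 windows.
Ptgs1: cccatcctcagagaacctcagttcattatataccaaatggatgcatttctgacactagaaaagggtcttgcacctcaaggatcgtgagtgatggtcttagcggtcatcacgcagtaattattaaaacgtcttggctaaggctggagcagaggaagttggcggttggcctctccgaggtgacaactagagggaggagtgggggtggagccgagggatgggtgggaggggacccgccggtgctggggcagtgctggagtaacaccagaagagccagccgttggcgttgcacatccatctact
Ptgs2: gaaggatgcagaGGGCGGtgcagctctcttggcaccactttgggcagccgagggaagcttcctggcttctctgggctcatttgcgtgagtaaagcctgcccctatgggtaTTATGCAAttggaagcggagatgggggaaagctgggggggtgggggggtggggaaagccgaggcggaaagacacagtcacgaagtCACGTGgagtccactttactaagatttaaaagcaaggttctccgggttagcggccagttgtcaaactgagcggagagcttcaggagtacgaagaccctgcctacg
Ptges: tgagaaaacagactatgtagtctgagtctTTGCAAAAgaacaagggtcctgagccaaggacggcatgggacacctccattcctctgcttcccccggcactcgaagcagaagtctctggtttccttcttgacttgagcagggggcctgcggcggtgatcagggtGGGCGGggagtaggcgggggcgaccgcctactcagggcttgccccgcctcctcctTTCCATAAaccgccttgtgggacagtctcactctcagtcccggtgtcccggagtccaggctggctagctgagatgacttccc
The Ptgs2 window holds a GC box at -238, a C/EBP match at -140 and an E-box at -55, counted from the start of the gene to the first base of the match. The Ptges window holds C/EBP matches at -221 and -32 and a GC box at -87. None of the searched letters occurs in the Ptgs1 window. Such matches are common: of 33469 rat promoters of this length, 41.3% hold the C/EBP letters, 33.1% the GC box, 21.2% TGACG, 14.2% TATAAA and 6.42% the E-box. The G and C content was 54.3% for Ptgs1, 56.7% for Ptgs2 and 59.7% for Ptges, against a median of 51.7% over all promoters. Promoters were matched by symbol for 7 of the 10 genes.

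Values are log2 signals of the robust multi-array average (RMA), in which a difference of 1 is a doubling. Groups were compared with limma, with the pair as a block. The Benjamini-Hochberg adjustment covered the 15521 probe sets whose interquartile range was in the upper part, among them 11 of the 12 probe sets of these genes. Of the 15521, 418 probe sets (2.69%) passed an adjusted p of 0.05, with 295 lower (1.9%) and 123 higher (0.792%) in mye-macrophages. Of the 12 probe sets of the prostaglandin and leukotriene genes, 1 passed, a probe set of Ptgs1 that was lower in mye-macrophages. The fitted log2 fold changes of the 12, mye-macrophages minus control macrophages, lay below 0 for 7 and above 0 for 5, with a median of -0.017, against 0.0044 over all probe sets tested. Without adjustment, 4 of the 11 had a p under the same threshold (3 lower, 1 higher), against 20.3% of all filtered probe sets (11.6% lower and 8.61% higher). The same 4 moved one way in all 5 pairs, against 17.1% of the filtered probe sets (9.59% lower and 7.53% higher). In none of the 12 were the groups apart without overlap, against 0.734% of the filtered probe sets. For arrays it is the number of samples that limits the precision.

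**Figure D1:**
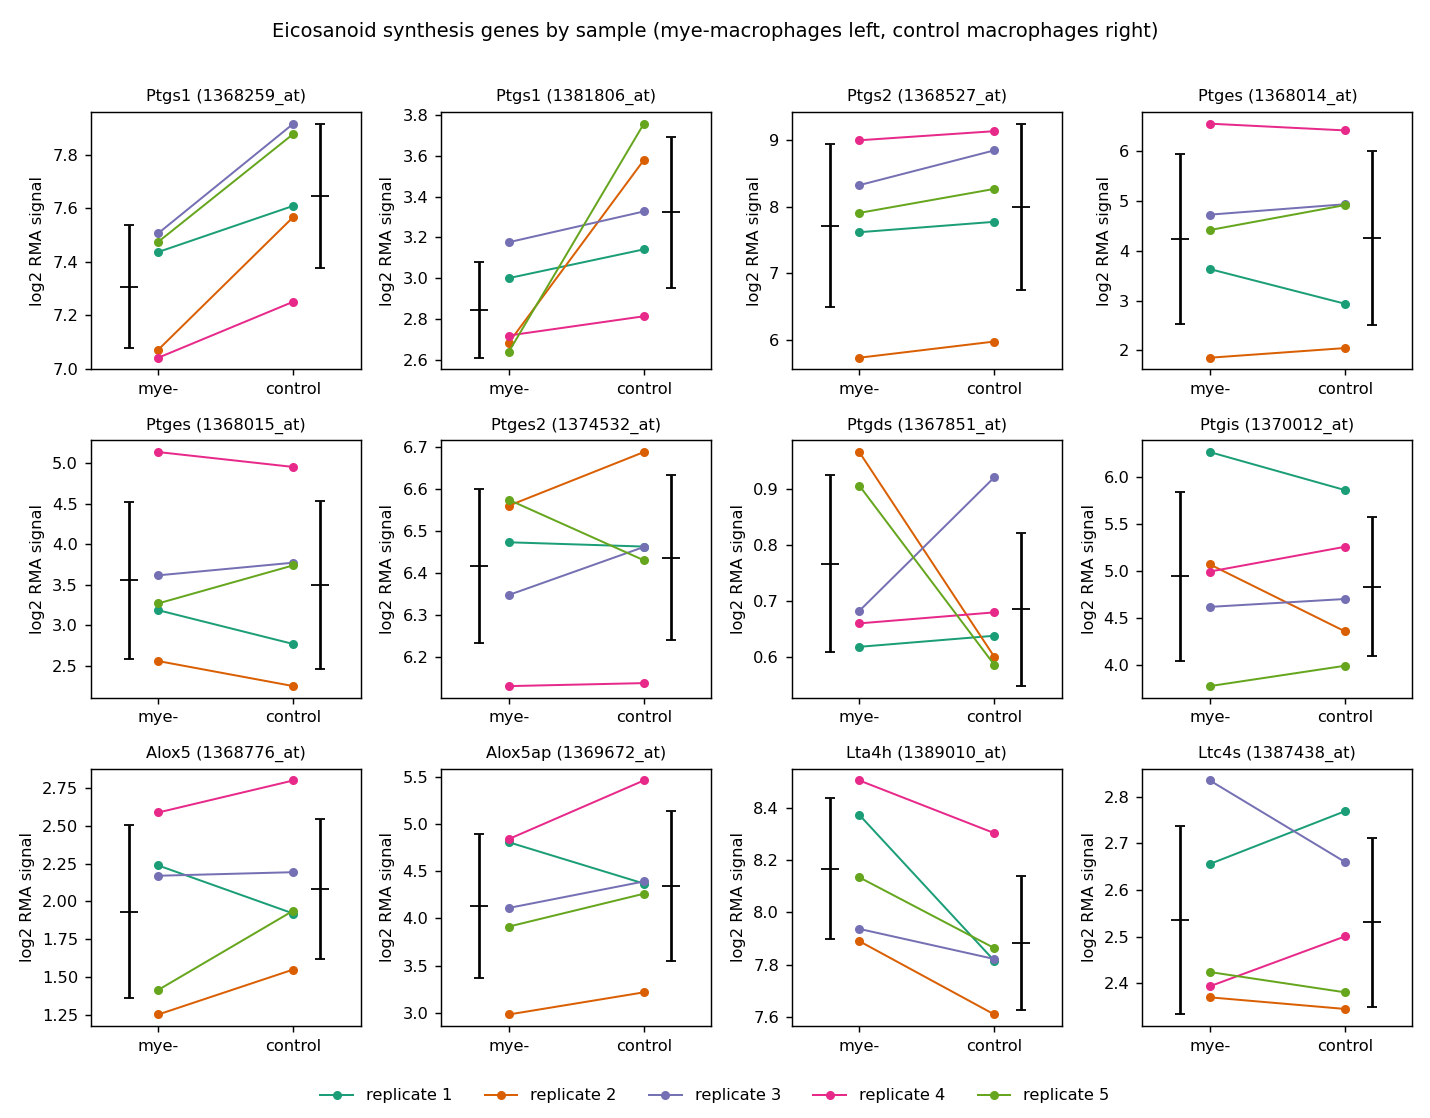
Log2 RMA signal (vertical axis, with its own scale in each panel) of the 12 probe sets in mye-macrophages (left) and control macrophages (right), with a line joining the samples of each pair and bars for the mean ± SD of 5 samples. Both Ptgs1 probe sets and Ptgs2 lie lower and Lta4h higher in the mye-macrophage sample of all 5 pairs, while for Ptgs2 and Ptges the pairs lie much further apart than the groups.

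Ptgs1, which encodes COX-1, was lower in mye-macrophages. On its brighter probe set, 1368259_at (transcript NM_017043), the signal was 7.44, 7.07, 7.51, 7.04 and 7.47 in mye-macrophages 1 to 5, against 7.61, 7.57, 7.92, 7.25 and 7.88 in control macrophages 1 to 5. Every mye-macrophage sample lay below the control sample of its pair, but the groups overlap, since the control sample of pair 4 lay below 3 of the mye-macrophage samples. The means were 7.31 ± 0.23 in mye-macrophages and 7.64 ± 0.27 in control macrophages (SD, n = 5 each). The log2 fold change was -0.34 (SE 0.07, 95% interval -0.50 to -0.17), or 1.26-fold lower, and the adjusted p was 0.0473 by limma with the block. This call lies just under the threshold: the adjusted p was 0.705 without the pair as a block, where 6.65% of the filtered probe sets had an unadjusted p under the threshold and 0% an adjusted one, 0.0947 when adjusted over all probe sets, of which 0.412% passed, and between 0.0729 and 0.140 with any of the 5 pairs left out, at log2 fold changes of -0.38 to -0.30. In bulk RNA, fewer cells of a type that carries Ptgs1 and less Ptgs1 RNA per cell cannot be told apart.

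The dimmer Ptgs1 probe set, 1381806_at (BF418208), read 3.00, 2.68, 3.18, 2.72 and 2.64 in mye-macrophages 1 to 5, against 3.14, 3.58, 3.33, 2.81 and 3.76 in control macrophages 1 to 5. It too was lower in the mye-macrophage sample of all 5 pairs, by 0.90 and 1.12 in pairs 2 and 5 and by 0.15 or less in the other 3 pairs. Its log2 fold change was -0.48 (SE 0.15, 95% interval -0.83 to -0.13), and with an adjusted p of 0.131 in the limma fit it did not pass. Across the 10 arrays the probe sets of Ptgs1 correlated at r = 0.80, which includes the differences between the pairs that they share.

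Ptgs2, which encodes COX-2, did not pass the test, although it lay lower in mye-macrophages in each pair. Probe set 1368527_at (U03389) read 7.62, 5.74, 8.32, 8.99 and 7.91 in mye-macrophages 1 to 5, against 7.77, 5.98, 8.84, 9.13 and 8.27 in control macrophages 1 to 5. Pair 2 was lowest and pair 4 highest in both groups, so the group ranges coincide almost fully, while the differences within the pairs were -0.16, -0.24, -0.52, -0.14 and -0.36. The samples had an SD of 1.22 among mye-macrophages and of 1.24 among control macrophages (n = 5 each). The log2 fold change was -0.28 (SE 0.08, 95% interval -0.46 to -0.11), or 1.22-fold lower. By limma the adjusted p was 0.0897 with the block and 0.963 without it, where the SE was 0.65. With a variance prior that follows the signal level and is robust to outlying probe sets, the adjusted p of Ptgs2 in limma was 0.0140. This setting called 1041 of the filtered probe sets, against 418 in the main fit. A transcript annotated as Ptgs2os, the strand opposite to Ptgs2, was looked at after its values were seen: its probe set 1375986_at had a log2 fold change of -0.40 (SE 0.12, adjusted p = 0.124 in the limma fit) and was lower in mye-macrophages in 4 of 5 pairs.

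Ptges, the inducible microsomal prostaglandin E synthase that works with COX-2, showed no difference between the groups beyond the spread of the pairs. Probe set 1368014_at (AB048730) read 3.63, 1.85, 4.73, 6.55 and 4.42 in mye-macrophages 1 to 5, against 2.94, 2.05, 4.93, 6.42 and 4.92 in control macrophages 1 to 5. The mye-macrophage sample was higher in pairs 1 and 4 and lower in pairs 2, 3 and 5. Its log2 fold change was -0.015 (SE 0.15, 95% interval -0.34 to 0.31, adjusted p = 0.968 in the limma fit). Probe set 1368015_at (AF280967) had 0.057 (SE 0.12, 95% interval -0.22 to 0.33, adjusted p = 0.829), with signals of 2.56 to 5.14 in mye-macrophages and 2.25 to 4.95 in control macrophages. The intervals leave room for a change of up to about the size seen for Ptgs1 in either direction.

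Ptges2, a further prostaglandin E synthase, had a narrow range. Probe set 1374532_at (AI704291) read 6.47, 6.56, 6.35, 6.13 and 6.57 in mye-macrophages 1 to 5, against 6.46, 6.69, 6.46, 6.14 and 6.43 in control macrophages 1 to 5. The groups cover the same range, and the log2 fold change was -0.019 (SE 0.07, 95% interval -0.18 to 0.14). It is the 1 probe set of the 12 that the variance filter left out, and its adjusted p over all probe sets was 0.947 in the limma fit.

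Ptgds, the lipocalin-type prostaglandin D synthase, which is abundant in brain and meninges, read 0.62, 0.97, 0.68, 0.66 and 0.91 on probe set 1367851_at (J04488) in mye-macrophages 1 to 5, against 0.64, 0.60, 0.92, 0.68 and 0.59 in control macrophages 1 to 5. Its mean lay at the 8.20th percentile of all probe sets, among the dimmest signals of the arrays. A log2 fold change of 0.082 (SE 0.10, 95% interval -0.14 to 0.30, adjusted p = 0.675 in the limma fit) was found, and no pattern by pair or by group is visible at this level. Other genes of brain were read beside it, by the brightest probe set of each. Of the 9 measured oligodendrocyte and myelin genes 4 were kept by the variance filter, and 2 were called higher in mye-macrophages, Mobp, a myelin protein (log2 fold change 3.60), and Bcas1, a marker of oligodendrocytes (1.76). Of the 7 measured astrocyte and meninges genes 4 were kept, and 1 was called higher, the glutamate transporter Slc1a3 (0.91, adjusted p = 0.0247 in the limma fit). In the same list Gja1, also kept, went the other way without passing. It had -0.62 (adjusted p = 0.141 in the limma fit) and was lower in mye-macrophages in 4 of 5 pairs. The median log2 fold change of the 7 was -0.0051. Over all filtered genes 1.12% were called higher. Mbp, the myelin basic protein, was -0.20 on its brightest probe set, which the filter left out, and 3.37 on 1 of its 2 other probe sets (adjusted p = 0.000877), a value looked at after the lists had been read.

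Ptgis, the prostacyclin synthase, differed between the pairs and not detectably between the groups. Probe set 1370012_at (NM_031557) read 6.27, 5.07, 4.62, 4.99 and 3.77 in mye-macrophages 1 to 5, against 5.86, 4.35, 4.70, 5.26 and 3.99 in control macrophages 1 to 5. It was higher in the mye-macrophage sample of pairs 1 and 2 and lower in that of pairs 3, 4 and 5, with a log2 fold change of 0.11 (SE 0.14, 95% interval -0.20 to 0.42, adjusted p = 0.693 in the limma fit). Pair 1 was highest and pair 5 lowest in both groups.

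In the leukotriene branch, Alox5, the 5-lipoxygenase, read 2.24, 1.25, 2.17, 2.59 and 1.41 on probe set 1368776_at (NM_012822) in mye-macrophages 1 to 5, against 1.92, 1.55, 2.19, 2.80 and 1.94 in control macrophages 1 to 5. The mye-macrophage sample was lower in 4 of 5 pairs, with pair 1 the exception, and the groups overlap widely. Myelin went with a log2 fold change of -0.15 (SE 0.11, 95% interval -0.40 to 0.10, adjusted p = 0.491 in the limma fit), on a signal that lay at the 45.6th percentile of all probe sets.

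Alox5ap, whose product FLAP presents arachidonic acid to 5-lipoxygenase, read 4.81, 2.98, 4.11, 4.84 and 3.91 on probe set 1369672_at (NM_017260) in mye-macrophages 1 to 5, against 4.37, 3.22, 4.39, 5.46 and 4.26 in control macrophages 1 to 5. As for Alox5, the mye-macrophage sample was lower in 4 of 5 pairs and higher in pair 1. Its log2 fold change was -0.21 (SE 0.13, 95% interval -0.50 to 0.08, adjusted p = 0.398 in the limma fit).

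Lta4h, which makes leukotriene B4, was the member with the signal higher in mye-macrophages in all 5 pairs, and it did not pass. Probe set 1389010_at (AW918009) read 8.37, 7.89, 7.94, 8.51 and 8.13 in mye-macrophages 1 to 5, against 7.81, 7.61, 7.82, 8.30 and 7.86 in control macrophages 1 to 5. Pair 1 had the widest gap, 0.56, and the other pairs had 0.12 to 0.28. The means were 8.17 ± 0.27 in mye-macrophages and 7.88 ± 0.26 in control macrophages (SD, n = 5 each). The log2 fold change was 0.29 (SE 0.08, 95% interval 0.11 to 0.46), or 1.22-fold higher. By limma the adjusted p was 0.0911 with the block, 0.806 without it and 0.0138 with the trended and robust variance prior. That prior called 1041 of the filtered probe sets, against 418 in the main fit.

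Ltc4s, which makes leukotriene C4, read 2.66, 2.37, 2.83, 2.39 and 2.42 on probe set 1387438_at (NM_053639) in mye-macrophages 1 to 5, against 2.77, 2.34, 2.66, 2.50 and 2.38 in control macrophages 1 to 5. The groups cover nearly the same range. Its log2 fold change was 0.0046 (SE 0.07, 95% interval -0.16 to 0.16, adjusted p = 0.981 in the limma fit).

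**Figure D2:**
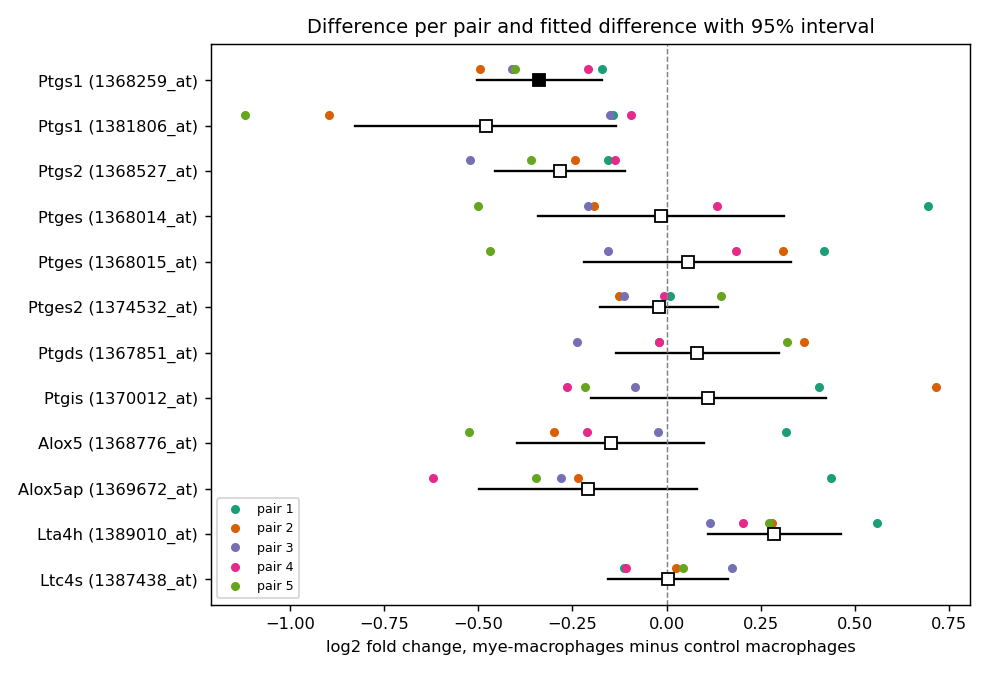
Log2 fold change, mye-macrophages minus control macrophages (horizontal axis), of the 12 probe sets, with squares for the fitted value, lines for its 95% interval and coloured points for the 5 pairs; the filled square marks the adjusted p under 0.05. Only the upper Ptgs1 probe set is filled, at -0.34, and the intervals of both Ptgs1 probe sets, Ptgs2 and Lta4h do not reach 0.

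For most of these genes the pairs lay much further apart than the groups. The share of the sum of squares over the 10 arrays that went with the replicate number had a median of 90.8% over the 12 probe sets, against 67.3% over the filtered probe sets, and it was over 80% for 8 of the 12. It was 98.0% for Ptgs2, 98.3% and 96.6% for Ptges, 92.7% for Ptgis, 91.6% for Alox5ap, 91.3% for Ptges2, 90.3% for Ltc4s and 88.5% for Alox5. The share that went with myelin was 36.3% and 42.9% for the Ptgs1 probe sets, 27.1% for Lta4h and 1.62% for Ptgs2. Ptgs1 and Lta4h were thus the members in which the group carried a large part of the spread, with replicate shares of 58.7% for the brighter Ptgs1 probe set and 65.5% for Lta4h.

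**Figure D3:**
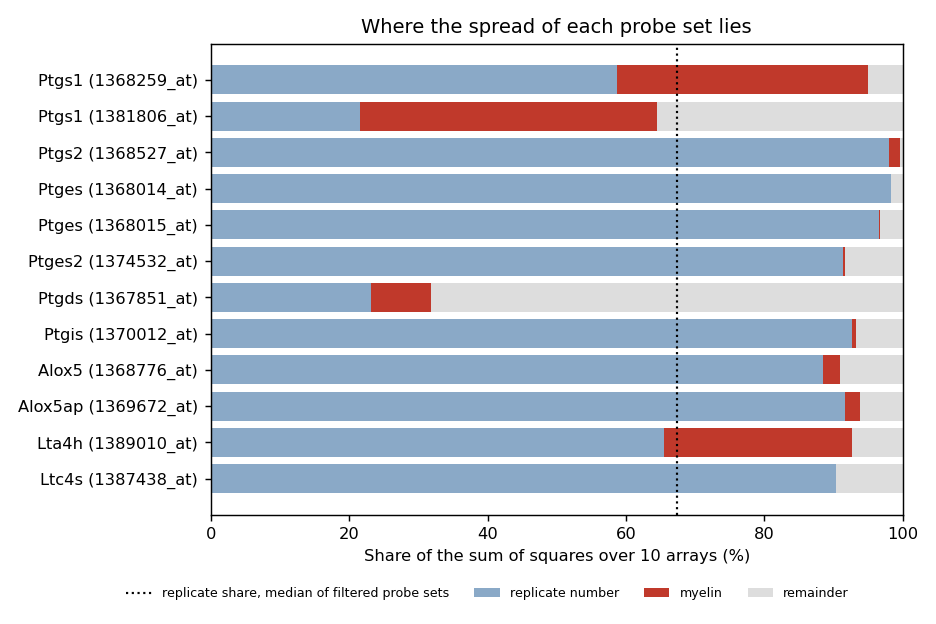
Share of the sum of squares over the 10 arrays (horizontal axis, %) that went with the replicate number (blue), with myelin (red) and with neither (grey) for each of the 12 probe sets; the dotted line marks the median replicate share of the filtered probe sets, 67.3%. Myelin takes 36.3% and 42.9% for Ptgs1 and 27.1% for Lta4h, and 8.70% or less for every other probe set.

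The distances between pairs were large in absolute terms. The mean of the pair ranged over 4.53 log2 units for Ptges on 1368014_at, a 23.2-fold difference between pair 2 and pair 4, and 0.174% of the filtered probe sets had a larger range. Ptgs2 ranged over 3.20 log2 units, a 9.21-fold difference between the same pairs, with 0.619% of the filtered probe sets above it. The ranges were 2.19 for Ptgis and 2.05 for Alox5ap, exceeded by 1.37% and 1.65% of the filtered probe sets, and 1.29 for Alox5. The median range was 0.98 over the 12 probe sets and 0.46 over the filtered probe sets.

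The order of the pairs was shared by part of the genes. Ptgs2 and both Ptges probe sets ran from pair 2 at the low end through pairs 1, 5 and 3 to pair 4 at the high end. Alox5, Alox5ap and Lta4h also had pair 2 lowest and pair 4 highest, with the 3 other pairs in different orders. How many of all probe sets have pair 2 lowest and pair 4 highest was not counted, so this is not shown to be particular to these genes. Ptgs1 ran otherwise, with pair 4 lowest and pair 3 highest on both probe sets, as did Ptges2, with pair 4 lowest and pair 2 highest, and Ptgis, with pair 5 lowest and pair 1 highest. What the numbers stand for (animals, days or cell preparations) is not given in the sources used here.

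Of the cells other than macrophages that a lavage can hold, mast cells had the most markers that moved with these pairs. Of 10 mast cell markers 9 were measured, 5 of them above the median signal of all probe sets, and 0 were called between the groups by limma. The log2 of their summed signals in pairs 1 to 5 was 7.15, 5.16, 5.54, 8.72 and 6.01 in mye-macrophages, against 5.85, 4.95, 5.62, 8.61 and 6.36 in control macrophages. It was thus highest in pair 4 and lowest in pair 2, as for Ptgs2, Ptges, Alox5, Alox5ap and Lta4h. Cpa3, the mast cell carboxypeptidase, was the brightest of the 9 and the largest part of this sum. It read 7.99 in mye-macrophages and 7.92 in control macrophages of pair 4, and 2.83 in mye-macrophages and 3.19 in control macrophages of pair 2. Of the 9 genes, 8 had pair 2 lowest and pair 4 highest, all but Kit. Pairs 2 and 4 also ran opposite over all tested probe sets. Deviations from the group means correlated at r = -0.650 for mye-macrophages 4 and control macrophages 2, and at r = -0.580 for mye-macrophages 2 and control macrophages 4. Such deviations cancel out within a group. Where samples of the same number agree, this alone pushes r for different numbers below 0. Of the 7 measured macrophage markers, 4 also had pair 2 lowest and pair 4 highest. The share of all probe sets with this order was not counted. Among the 5 measured platelet and megakaryocyte markers this order was seen in Pf4 alone, a chemokine of platelets that macrophages also make, whose pair means ranged over 3.38 log2 units, while the other 4 ranged over 0.41 or less. Of the 8 measured mesothelial and fibroblast markers, Dcn, the matrix protein decorin, had pair 4 highest and a range of 4.10, and the other 7 ranged over 0.32 or less. Of 5 measured endothelial markers, 2 had pair 2 lowest and pair 4 highest, Tek and Tie1, and 2 lay above the median signal. Of 8 measured T, B and NK cell markers, 1 had this order and 4 lay above the median signal. Of 8 measured eosinophil and neutrophil markers, 0 lay above the median signal. The part of these cells in the results was not tested.

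The labelled cell type was borne out by its markers, and pair 2 was low in several of them too. All 7 measured macrophage markers lay above the median signal, with Lyz2, Cd68 and Cd14 within the top percentile. Cd14, the lipopolysaccharide co-receptor, had a range of pair means of 1.96 and Itgam, an integrin of myeloid cells, one of 1.32, with pair 2 lowest and pair 4 highest in both. Mrc1, the mannose receptor, was called higher in mye-macrophages (log2 fold change 0.71, adjusted p = 0.0265 in the limma fit) and had the same lowest and highest pair. A sign of RNA breakdown or incomplete copying, the signal of beta-actin's 3′ control probe set minus that of its 5′ one, averaged 3.30 ± 0.32 in mye-macrophages and 3.02 ± 0.30 in control macrophages (SD, n = 5 each), higher in mye-macrophages in 4 of 5 pairs. The two-sided exact permutation p was 0.190 between the groups, and the exact sign-flip p over the pairs was 0.188. With the beta-actin gap as a further term in limma the adjusted p of Ptgs1 was 0.219, at a log2 fold change of -0.36. In that fit Lta4h had 0.18 (adjusted p = 0.464) in place of 0.29, and Ptgs2 -0.35 (adjusted p = 0.236) in place of -0.28. For Gapdh the same gap averaged 0.42 ± 0.13 in mye-macrophages and 0.40 ± 0.14 in control macrophages (SD, n = 5 each, two-sided exact permutation p = 0.770).

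The probe sets with the pattern most like 3 of the members were taken from those with another single gene symbol and a signal above the median, by Pearson correlation over the 10 arrays, which share the structure of the pairs. For Ptgs2 these were Snrnp27 (r = 0.989), Oaf (r = 0.988), Agfg1 (r = 0.987) and both probe sets of Cxcl3 (r = 0.987 and 0.985), a chemokine that attracts neutrophils. Cxcl3 ranged over 5.67 log2 units between the pairs, with pair 2 lowest and pair 4 highest, and had a log2 fold change of -0.09 on its closer probe set (adjusted p = 0.556 in the limma fit). For Alox5 they were Ss18, Sephs1, Atp6v0a1, Tal1 and Tesc (r = 0.963 to 0.945), all with pair 2 lowest and pair 4 highest. For Ptgs1 they were Twf2, Tmem161b, Pgpep1, Snrnp25 and Tomm20 (r = 0.940 to 0.917), all with pair 4 lowest, of which Tmem161b was called lower in mye-macrophages (log2 fold change -0.46, adjusted p = 0.0146).

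The rest of the pathway was read from a list of 53 genes that act before, beside or after the members, each by its brightest probe set. Of these, 45 were measured and 27 kept by the variance filter, and 0 passed in either direction, against 2.7% of the 7333 filtered genes (1.58% lower and 1.12% higher). At an unadjusted p under 0.05 in limma, 4 of the 27 were lower and 3 higher in mye-macrophages, beside 20.3% of the filtered probe sets. The median log2 fold change of the 45 was 0.043, and 26 lay above 0.

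Among the phospholipases that release arachidonic acid, 11 of 12 were measured and 5 kept. Pla2g4a, the cytosolic phospholipase that supplies both branches, lies outside the rule for naming and was named for its role after its values were seen, with a log2 fold change of -0.10 (SE 0.12) and 89.6% of its spread between the pairs. Pla2g12a, a secreted form, had 0.13 (SE 0.06) and was higher in mye-macrophages in all 5 pairs, outside the filter, and Plaat3, the brightest of the list, had -0.08 (SE 0.07).

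Of the other prostanoid synthases and reductases, 6 of 6 were measured and 4 kept. Tbxas1, the thromboxane synthase, read 8.18, 8.34, 8.50, 8.56 and 8.46 in mye-macrophages 1 to 5, against 8.57, 8.58, 8.84, 8.62 and 8.68 in control macrophages 1 to 5. Its groups do not overlap, but only narrowly, with a highest mye-macrophage signal of 8.56 and a lowest control signal of 8.57. Of the filtered probe sets, 0.734% had no overlap. The log2 fold change of Tbxas1 was -0.25 (SE 0.07). Its interquartile range of 0.14 left it outside the variance filter, and its adjusted p over all probe sets was 0.202 in the limma fit. Ptges3, the cytosolic prostaglandin E synthase and co-chaperone p23, had -0.05 (SE 0.07). Cbr1, a carbonyl reductase that acts on prostaglandin E2, lies outside the rule for naming and was named after its values were seen. Its log2 fold change was 0.24 (SE 0.08, adjusted p = 0.157 in the limma fit). The mye-macrophage sample was higher in all 5 pairs, but by only 0.001 in pair 5 and 0.07 in pair 3.

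Of the genes around leukotriene C4, 6 of 6 were measured and kept. Mgst3 and Mgst2, membrane glutathione S-transferases of the family of Ltc4s, had log2 fold changes of 0.27 (SE 0.08, adjusted p = 0.102 in the limma fit) and 0.16 (SE 0.06, adjusted p = 0.209), and both were higher in mye-macrophages in all 5 pairs. Mgst3 read 3.54, 2.66, 3.46, 3.64 and 3.32 in mye-macrophages 1 to 5, against 3.16, 2.65, 3.04, 3.35 and 3.06 in control macrophages 1 to 5, with almost no gap in pair 2. Of the other lipoxygenases and cofactors 4 of 6 were measured, with Alox15 at 0.07 (SE 0.09) and Cotl1, a partner of 5-lipoxygenase, at -0.01 (SE 0.11). The mean signal of Alox15 was low, at percentile 29.2 of all probe sets.

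Among the prostanoid receptors, 7 of 9 were measured and 3 kept. The receptors through which prostaglandin E2 raises cAMP, Ptger4 and Ptger2, had log2 fold changes of -0.22 (SE 0.08, outside the filter) and -0.24 (SE 0.10, adjusted p = 0.203 in the limma fit), each lower in mye-macrophages in 4 of 5 pairs. The mean signal of Ptger4 was low, at percentile 38.5 of all probe sets, and that of Ptger2 lay at percentile 82.1. The leukotriene B4 receptors Ltb4r and Ltb4r2 had 0.04 (SE 0.15) and 0.15 (SE 0.08), among 4 measured of 6 leukotriene and oxo-eicosanoid receptors. Their mean signals lay at percentiles 52.8 and 36.9.

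Of the genes of transport and breakdown, 7 of 8 were measured and kept, with a median log2 fold change of -0.12. They did not all move one way. Ptgr1 and Ephx2, both named after their values were seen, lay above 0, at 0.21 (SE 0.14) and 0.05 (SE 0.11). Ptgr1 was higher in mye-macrophages in 4 of 5 pairs. Abcc1, which exports leukotriene C4, had -0.26 (SE 0.09, adjusted p = 0.159 in the limma fit). Ptgr2, a reductase of prostaglandin breakdown, had -0.12 (SE 0.07, adjusted p = 0.345 in the limma fit). It was lower in mye-macrophages in all 5 pairs, though by only 0.009 in pair 5. The prostaglandin transporter Slco2a1 and the exporter Abcc4 were named after their values were seen. Slco2a1 had -0.28 (SE 0.12, adjusted p = 0.223 in the limma fit) and was lower in mye-macrophages in 3 of 5 pairs. A dimmer probe set of Slco2a1 did not share this drop. It had -0.04 (SE 0.12) and was higher in mye-macrophages in 4 of 5 pairs. Abcc4 had -0.20 (SE 0.08, adjusted p = 0.227 in the limma fit).

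**Figure D4:**
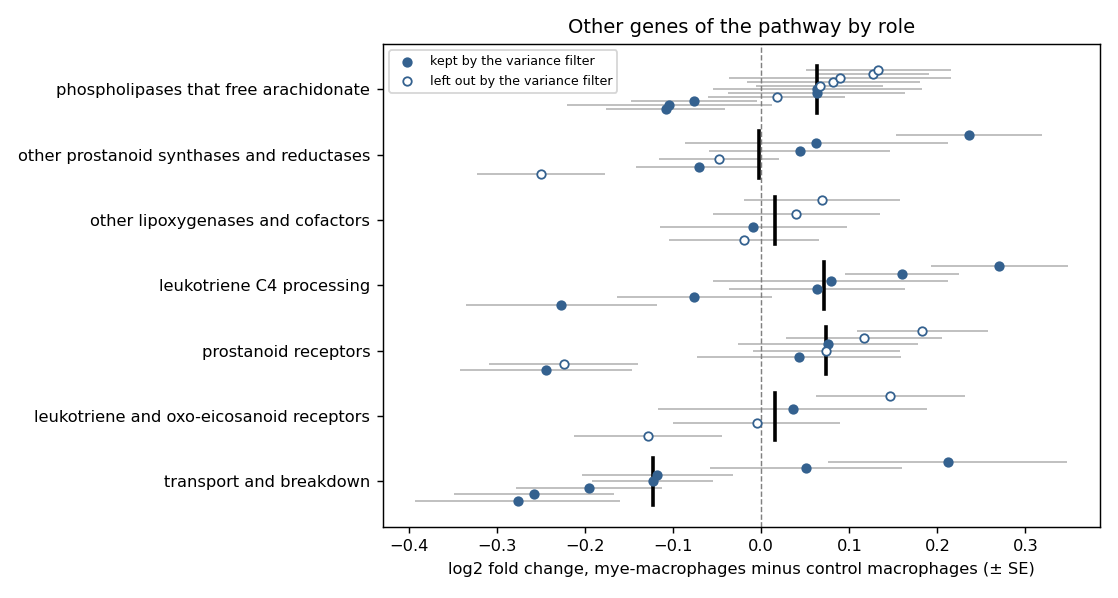
Log2 fold change, mye-macrophages minus control macrophages (horizontal axis, ± SE), of the 45 measured genes of the pathway other than the members, in rows by role, with filled points for genes kept by the variance filter, open points for those left out and a black bar for the median of each list. All 45 lie between -0.28 and 0.27, and 0 passed the test.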

How the data were processed

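RNA of 10 samples had been hybridized to 1-colour Affymetrix rat arrays. The authors deposited log2 values per probe set, made by RMA with the affy package, which corrects background, equalizes the arrays and summarizes the probes. Array medians lay at 2.30 to 2.34 (values -0.04 to 13.09); a level is read only within these arrays. After 57 control probe sets were left out, limma 3.58.1 in R 4.3.3 (lmFit, eBayes) was fitted to 31042 probe sets, with the replicate numbers as blocks, and Benjamini-Hochberg adjusted p-values were taken over the 50% with the larger interquartile range. The methods name that filter and an unpaired t-test, which was run as an alternative. Same-numbered samples deviated together (r = 0.404 to 0.791, against -0.650 to 0.279 otherwise, with a limit of 0.1). The values for different numbers are partly pushed down by this agreement, since deviations from a group mean cancel out within the group. The pairing rests on the agreement of same-numbered samples and on the labels' numbers. Exact permutation tests ran in Python 3.11.15 with SciPy 1.17.1, and the fit was tested on simulated data.

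Of the probe sets, 20826 have 1 gene symbol in the platform annotation, 436 several and 9780 none; symbols were updated through their gene identifiers. Only probe sets with 1 symbol were named. Per-sample values were printed for the brightest probe set of every member and, from the pathway lists, the gene with the lowest unadjusted p and the brightest gene of each list were named, along with any that passed; genes outside this rule are marked as such. The members and lists were chosen with earlier results of these data known. Alternatives covered the block, filter, scaling, array weights, variance prior, test, RNA quality and each pair left out.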

Additional observations from a re-analysis of the deposited data

Results flagged for a closer look

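Ptgds on probe set 1367851_at was the 1 group flagged of 24 tested for a sample far from the rest. In control macrophages the sample of pair 3 read 0.92, against 0.59 to 0.68 in the other 4, a gap of 0.720 of the group's range, over the limit of 0.71 for 5 samples. Chance flags about 1 in 20 groups, and the signal is among the dimmest of the arrays.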

How the results depend on the processing

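Only Ptgs1 was called among the 12 probe sets, and that call depends on the setting. The count of 1 was 0 without the replicate block, without the variance filter, with a filter on dim probe sets, with arrays centred on their medians, with the methods' t-test, with a paired t-test per probe set, with the gap of beta-actin as covariate and with any of the 5 pairs left out (0 to 0). It was 3 with the trended and robust variance prior, which added Ptgs2 and Lta4h, and stayed 1 with quantile normalization and with array weights. Over the 15 alternatives the adjusted p of Ptgs1 (1368259_at) ran between 0.00446 and 0.996, and its log2 fold change between -0.38 and -0.30. Over all filtered probe sets the 418 calls became 0 without the replicate block (1032 at an unadjusted p under 0.05, 2 of them members), 0 with the methods' t-test (778 unadjusted, 1 member), 0 with the paired t-test (2314 unadjusted, 3 members), 128 without the filter, 1041 with the trended and robust prior, 16 with the beta-actin gap and 31 to 659 with a pair left out, the most without pair 3. The cause was not tested. In the pathway list 0 genes were called under every alternative run.

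Of 180 log2 fold changes of single probe sets, 150 kept direction and side of the threshold, 12 lost the call (all Ptgs1), 2 gained one (Ptgs2 and Lta4h) and 16 changed sign, all on values near 0. With a pair left out, Ptges ran between -0.19 and 0.11 (1368014_at) and between -0.033 and 0.19 (1368015_at), Ptges2 between -0.060 and 0.0082, Ptgis between -0.040 and 0.21 and Ltc4s between -0.038 and 0.034. With the beta-actin gap, Ptges (1368015_at) was -0.071 and Ptgis -0.085. With quantile normalization Ptges2 was 0.011 and Ltc4s -0.0014, and with array weights Ltc4s was -0.0025. Signals as low as those of Ptgds limit what can be seen.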
